A study of Mus musculus with 21 samples.

Results

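The genes described here are the kappa light chain V genes that the annotation places on the plus strand of mouse chromosome 6. They were chosen by symbol and strand alone, as genes whose GENCODE symbol begins with Igkv and whose strand is +, leaving out Igkv14-126, Igkv4-91, Igkv12-89 and Igkv5-48, of which Igkv14-126 is the 1 gene on the plus strand. This gave 74 members of 160 kappa V genes and of 56953 genes in the files. The annotation calls 37 of them V genes and 37 V pseudogenes. The other parts of the locus used for comparison were 82 kappa V genes on the minus strand and the 4 genes left out.

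RNA from sorted peritoneal B cells of C57BL/6 mice was sequenced in 21 libraries. The B-1a subset had 4 WT samples and 4 of TET2-KO mice, the B-1b subset 4 and 3, and the B-2 subset 2 and 4. TET2 oxidises methylated cytosine in DNA. The TET2-KO mice lacked it in every cell, through deletion of the exons of its catalytic region from an allele that was built as conditional, so a difference cannot be placed in B cells alone. B-1a cells were sorted as CD5+ cells with little CD23, B220 and IgD on the surface, and B-1b cells likewise but CD5-. The study describes its mice as young. The B-2 gate, the age in weeks and whether a library held 1 mouse were not given in the sources used here. The p-values therefore measure the spread between these samples only, which may be partly technical. Counts over the whole Tet2 gene ran from 8.45 to 27.2 CPM (counts scaled to 1000000 per library) in WT and from 12.6 to 30.3 CPM in TET2-KO libraries, and they include reads outside the deleted exons, so they are no check of the deletion.

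In the kappa locus a V gene is joined to one of the J genes by the RAG recombinase, which cuts at recombination signals made of a heptamer, a spacer and a nonamer. A V gene that reads in the same direction as the J genes is joined by deletion of the DNA between them, and one that reads in the opposite direction is joined by inversion, which keeps that DNA in the chromosome. Transcription of a joined gene starts at its V promoter, where an octamer motif bound by Oct proteins lies before the start. In a population of B cells, reads on a V gene reflect both how many cells use it and how strongly they transcribe it. In bulk samples fewer cells that use a gene and less RNA per cell cannot be told apart.

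The J genes and Igkc also lie on the plus strand (Igkj1 at chr6:70699546-70699583 and Igkc at chr6:70703419-70703950, GRCm39), so every member reads toward them in the same direction. Along the locus the 160 kappa V genes fell into 53 runs of 1 orientation. Gaps of over 200 kb between neighbouring members set off 3 clusters. The distal cluster held 41 members, 23 of them genes, at chr6:67532481-68657832. The middle cluster held 17 members at chr6:68879965-69594461, all of the Igkv13 family, of which Igkv13-84 was the 1 gene, with 29 minus-strand genes between them. The proximal cluster held 16 members, 13 of them genes, at chr6:70170212-70681161, of the families Igkv3, Igkv6 and Igkv8. Igkv2-137 was the farthest from the J genes, 3166 kb from Igkj1, and Igkv3-1 the nearest, 18.4 kb away. Orientation ran with family. All members of Igkv11, Igkv16 and Igkv20 were on the plus strand, as were 12 of 13 Igkv3 and 17 of 18 Igkv13 genes, whereas all 33 Igkv4 genes were on the minus strand.

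The recombination signal is shown for the 12 members with the highest level, because it is the sequence through which each is joined to a J gene. Each is read from GRCm39 on the plus strand, starting at the base after the annotated end of the V gene, with the heptamer and the nonamer in capitals and the 12-base spacer in lower case. Igkv1-117 has its signal at chr6:68098812-68098839, Igkv1-110 at chr6:68248252-68248279, Igkv17-127 at chr6:67838644-67838671, Igkv14-111 at chr6:68233854-68233881, Igkv1-135 at chr6:67587493-67587520 and Igkv17-121 at chr6:68014303-68014330. Those of Igkv9-120, Igkv16-104, Igkv2-109, Igkv6-17, Igkv3-4 and Igkv14-100 are at chr6:68027441-68027468, chr6:68403057-68403084, chr6:68280143-68280170, chr6:70348978-70349005, chr6:70649362-70649389 and chr6:68496462-68496489.
Igkv1-117: CACAGTGatacagaccctaACAAAAATA
Igkv1-110: CACAGTGatacagaccctaACAAAAATA
Igkv17-127: CACAGTGctatgtcctcttACAGAAACC
Igkv14-111: CACAGTGagacaagtcataACATAAACC
Igkv1-135: CACAGTGattcagacccgaACAAAAACT
Igkv17-121: CACAGTGctatgtcctcttACAGAAACC
Igkv9-120: CACAGTGatacaaatcataACATAAACC
Igkv16-104: CACAGTGatacaagtcataACAAAAACC
Igkv2-109: CACACTGatacagccctgaACAAAAACA
Igkv6-17: CACAGTGcttcagcctcctACACAAACC
Igkv3-4: CACAGTGctccagggctgaACAAAAACC
Igkv14-100: CACAGTGattcaagtcataACATAAACC

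Of the 37 member genes, 33 carried the heptamer CACAGTG directly after the V gene, compared with 9 of the 37 member pseudogenes and 49 of the 59 minus-strand genes. The same 7 bases directly followed 0.615% of all 56953 annotated genes. Counted from 1 at the first base of the motif, Igkv2-109 differed by G5C, Igkv10-95 by G5A, and Igkv8-26 and Igkv8-18 by T6A. The nonamer ACAAAAACC was exact in 12 of 37 genes, and 9 of these 12 lay in the proximal cluster. Igkv14-111, Igkv9-120 and Igkv14-100 carried A4T in the nonamer, Igkv17-127 and Igkv17-121 A4G and Igkv6-17 A4C. The 37 genes held 27 different signals, and 14 genes shared theirs with another member. Igkv1-117 and Igkv1-110, the 2 members with the highest levels, had the same 28 bases, as did Igkv17-127 and Igkv17-121. All 28 bases printed for Igkv3-4 were also those of Igkv3-1, Igkv3-12 and 5 more Igkv3 genes.

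The octamer ATTTGCAT lay in the 300 bases around the start (250 before and 50 after) of 29 of the 37 member genes and of 11 of the 37 pseudogenes, always on the strand of the gene, at a median of 91 bases before the start. Over all annotated starts, 1.02% held it on the gene's strand and 2.24% on either. The octamer of Igkv2-137 lay 33 bases after the annotated start. Within 1 base of the octamer, 36 of 37 member genes matched, compared with 13.1% of all starts. Igkv1-117 and Igkv1-110 held TTTTGCAT in its place, 74 and 77 bases before their starts. The promoters of Igkv17-127 (chr6:67838012-67838111) and Igkv17-121 (chr6:68013671-68013770) are printed with the octamer in capitals, because the pair shares its signal and nearly all of this promoter while the levels of the pair are compared further on.
Igkv17-127: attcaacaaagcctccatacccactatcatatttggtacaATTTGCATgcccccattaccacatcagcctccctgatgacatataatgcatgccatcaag
Igkv17-121: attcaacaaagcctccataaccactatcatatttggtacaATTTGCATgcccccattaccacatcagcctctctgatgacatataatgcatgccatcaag

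Total counts per library ran from 9667187 to 24152518, and 57915 to 235866 of them lay on kappa V genes, 0.501% to 1.15% of the total. Before any result rests on the WT libraries, 5 of them need care, those labelled WT 1 and WT 2. Cd5, which the B-1a gate selects, was 5.15 and 1.64 CPM in the libraries labelled B-1a WT 1 and 2, below the 15.9 to 22.7 CPM of the other 6 B-1a libraries. It was 18.6 CPM in the library labelled B-1b WT 1, above the 2.09 to 5.09 CPM of the 5 B-1b libraries with other numbers. Fcer2a, the CD23 gene that marks B-2 cells, was 814 CPM in the library labelled B-1a WT 1 and 597 CPM in that labelled B-1b WT 2, within the 484 to 832 CPM of 5 B-2 libraries, but 24.2 CPM in the library labelled B-2 WT 1. The labels were kept, and only some results of each comparison with WT are also given without these 5 libraries. They are mainly counts of members and the difference in share of all kappa V counts. Splits by cluster, summed levels, effective numbers of genes and most fold changes of single genes are given only with these libraries included. The same holds for differences in share with the left-out genes taken out of the denominator. In the TET2-KO libraries Cd5 and Fcer2a followed the labels. The 6 macrophage markers summed to 3900 to 27756 CPM with ranges that overlapped between all groups, and their part in the results was not tested. The part of erythroid markers was not tested either. They summed to 11.3 to 1702 CPM in B-1a WT and to 1.61 to 29.96 CPM in B-1a TET2-KO libraries.

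Reads on the members were concentrated on a few genes. Scaled by exon length, the 12 highest members ran from 199.6 to 1364 mean CPM per kb over 21 libraries, and they held 78.8% of the member counts on average. Igkv1-117 led with 1364 CPM per kb, ahead of Igkv1-110 with 1039. Igkv17-127 (501), Igkv14-111 (471) and Igkv1-135 (455 CPM per kb) came next. Of these 12, 10 lay in the distal cluster, and Igkv6-17 and Igkv3-4 were the 2 proximal ones. Across the 37 genes the level per kb had a Spearman rho of -0.0986 with the start position, as a description over genes that share libraries. The 37 genes had a median of 121 CPM per kb and the 37 pseudogenes a median of 0.154.

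**Figure D1:**
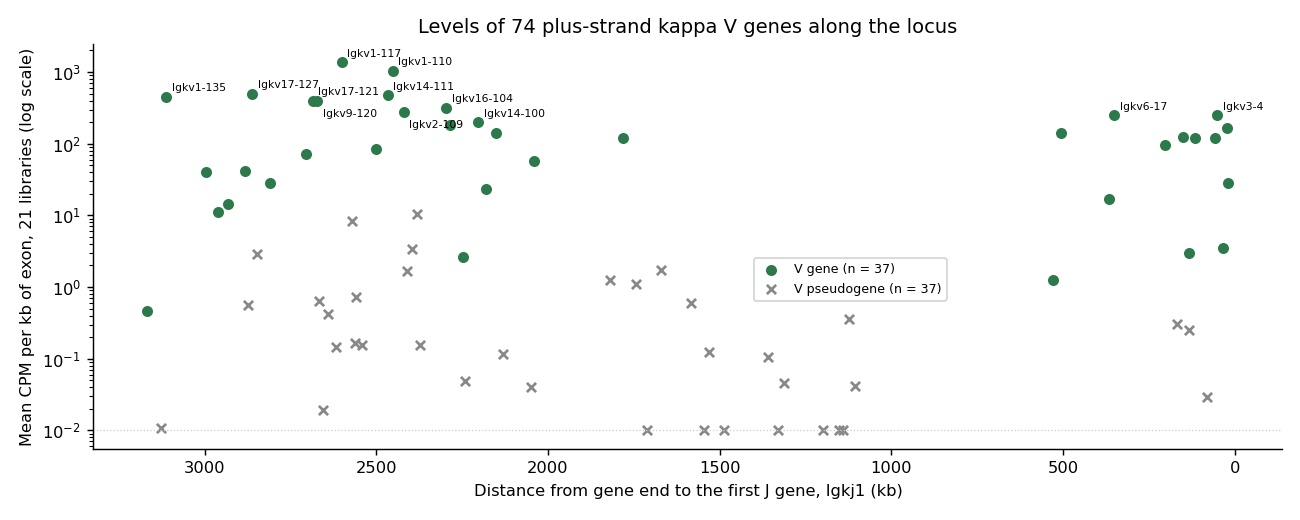
Mean CPM per kb of exon over 21 libraries (log axis) against the distance in kb from the end of each of the 74 members to Igkj1, with V genes as filled circles, pseudogenes as crosses, and means below 0.01 drawn at 0.01. The highest genes, Igkv1-117 and Igkv1-110, lie in the distal cluster at left, the genes have a median of 121 and the pseudogenes a median of 0.154.

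At the other end, Igkv2-137 averaged 0.467 CPM per kb, with reads in 16 of 21 libraries, although both motifs of its signal were exact, and it overlaps another annotated gene, Gm42889, so its reads are uncertain. Igkv8-26 (1.27 CPM per kb), Igkv20-101-2 (2.59), Igkv3-9 (2.95) and Igkv3-3 (3.49) were also low. The 29 genes with an exact octamer had a median of 121 CPM per kb and a highest of 501, and the 8 without one a median of 106 and a highest of 1364. The 4 genes with another heptamer ran from 1.27 to 276 CPM per kb. In all, 35 members were counted in every library, 32 of them genes, and 6 members, all pseudogenes, were at 0 counts in every library. A count of 0 in a library allows 3 counts, or 0.00127% to 0.00518% of its kappa V counts.

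Igkv11-106 was the pseudogene with the highest mean. It was counted at 34.5, 0.123, 0 and 0.797 CPM in B-1a TET2-KO libraries 1 to 4 and at 1.17, 1.003, 0.521 and 14.2 CPM in B-1a WT libraries 1 to 4. The high values were those of 1 library in each group. This gene and the 4 low genes were named after their values were seen. Reads that align to several places were not counted, so members with near-identical copies can read low. Igkv13-84 shared 37.9% of its 100-base windows with Igkv13-85, and Igkv6-17 19.1% with Igkv6-25.

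As a share of all kappa V counts, the members stood lowest in B-1a cells of TET2-KO mice. They held 14.7, 16.96, 10.3 and 4.51% in B-1a TET2-KO libraries 1 to 4 and 45.2, 44.9, 26.4 and 28.3% in B-1a WT libraries 1 to 4. They held 46.4, 40.7 and 46.02% in B-1b TET2-KO and 20.1, 44.4, 47.2 and 48.1% in B-1b WT libraries. In B-2 cells the shares were 47.2, 46.7, 46.7 and 45.5% in TET2-KO and 36.6 and 46.9% in WT libraries 1 and 4. The B-1a TET2-KO libraries lay below all 17 others. Counting error was small, with a 95% Wilson interval of 4.38% to 4.63% for the lowest library and 47.8% to 48.4% for the highest. These intervals cover counting error only, since no molecular identifiers are described and amplified reads are not independent molecules.

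The mean share was 11.6% ± 5.49 (SD, n = 4) in TET2-KO and 36.2% ± 10.2 (SD, n = 4) in WT B-1a cells, a difference of -24.6 points, or -15.7 with the WT 1 and WT 2 libraries left out. It was 44.4% ± 3.16 (SD, n = 3) in TET2-KO and 39.9% ± 13.3 (SD, n = 4) in WT B-1b cells, a difference of 4.43 points that turned to -3.31 without those libraries and to -2.20 without that labelled WT 1 alone. In B-2 cells it was 4.83 points, and -0.316 without the library labelled WT 1. The share is not independent of the 4 genes left out, which held 61.2 to 85.7% of the kappa V counts of B-1a TET2-KO libraries and 3.91 to 8.34% of those of B-2 TET2-KO libraries. With these 4 taken out of the denominator, the members held 40.03, 43.7, 44.7 and 31.5% in B-1a TET2-KO, 47.6, 48.6, 51.1 and 45.7% in B-1a WT and 48.6 to 50.8% in B-2 TET2-KO libraries. The B-1a difference then was -8.26 points in place of -24.6. On that base the B-1b TET2-KO libraries stood at 55.6, 53.5 and 60.3%, above the B-1a and B-2 TET2-KO libraries, and the B-1b WT libraries at 47.4, 47.1, 53.1 and 53.2%. The B-1b difference then was 6.25 points, and every B-1b TET2-KO library lay above every B-1b WT library. The 47.4 and 47.1% are those of the libraries labelled WT 1 and WT 2, and the difference without them is not given. The lowest TET2-KO value, 53.5%, lay close to the 53.1 and 53.2% of WT 3 and WT 4. No test was run on these sums.

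**Figure D2:**
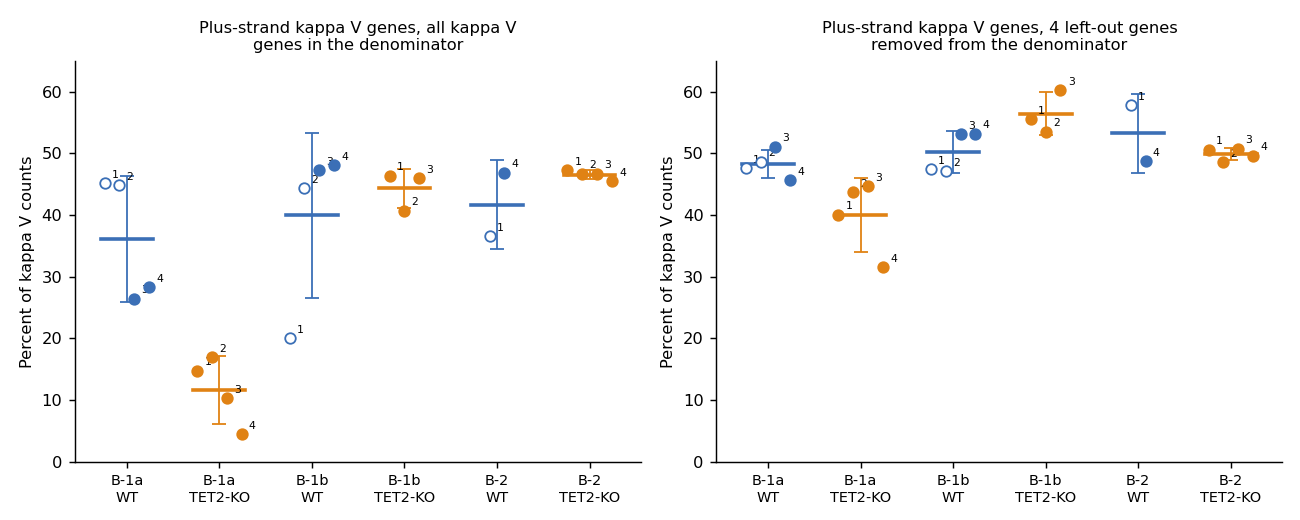
Percent of kappa V counts that lie on the 74 members in each of 21 libraries, with all kappa V genes in the denominator (left) and without the 4 left-out genes (right). Points are libraries numbered as labelled (blue WT, orange TET2-KO, open for WT 1 and WT 2), bars are means and error bars SD, and the 4 B-1a TET2-KO libraries, at 4.51 to 16.96% at left, lie at 31.5 to 44.7% at right.

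The members also differed in how evenly their counts were spread. The effective number of genes, which is 1 over the sum of squared shares and equals the number of genes if all are used alike, was 13.9, 14.1, 14.4 and 14.8 in B-2 TET2-KO libraries 1 to 4. It was 9.03, 9.17 and 7.75 in B-1b TET2-KO and 5.97, 4.24, 8.48 and 6.24 in B-1a TET2-KO libraries. Among TET2-KO libraries the B-2 values were higher than all values of both B-1 subsets. In B-1a TET2-KO library 2 Igkv1-117 alone held 45.8% of the member counts, in library 3 Igkv9-120 held 26.4% and in library 4 Igkv17-121 held 32.7%. In B-1b TET2-KO library 3 Igkv14-111 led with 28.99%. Igkv1-117 led in all 4 B-2 TET2-KO libraries with 15.1 to 16.9%. Among WT libraries the effective number was 14.9, 10.1, 8.11 and 8.65 in B-1a 1 to 4, 8.30, 13.1, 9.85 and 9.81 in B-1b 1 to 4 and 10.5 and 14.5 in B-2 1 and 4. The libraries labelled B-1a WT 1 (14.9) and B-1b WT 2 (13.1) carried Fcer2a at the level of B-2 libraries, and that labelled B-2 WT 1 (10.5) did not.

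Among TET2-KO libraries the share of the proximal cluster was highest in B-2 cells, whereas the WT libraries showed no such order. The 16 proximal members held 22.8, 24.6, 23.1 and 24.7% of the member counts in B-2 TET2-KO libraries, 11.2, 10.2 and 7.39% in B-1b TET2-KO and 14.3, 14.3, 4.10 and 10.5% in B-1a TET2-KO libraries. Among TET2-KO libraries all B-2 values were above all B-1 values, and this was not tested. In WT they held 26.1, 13.3, 24.02 and 12.4% in B-1a, 14.8, 21.7, 12.04 and 10.3% in B-1b and 7.44 and 23.8% in B-2 libraries. The libraries labelled B-1a WT 1 and B-1b WT 2, which carried Fcer2a at the level of B-2 libraries, were high, as was B-1a WT 3, and the library labelled B-2 WT 1, which did not, was low. In B-1a WT 3 Igkv3-4 stood at 400.5 CPM. The Igkv3 family held 15.6% to 17.2% of member counts in B-2 TET2-KO, 4.75% to 7.96% in B-1b TET2-KO and 2.82% to 12.2% in B-1a TET2-KO libraries.

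**Figure D3:**
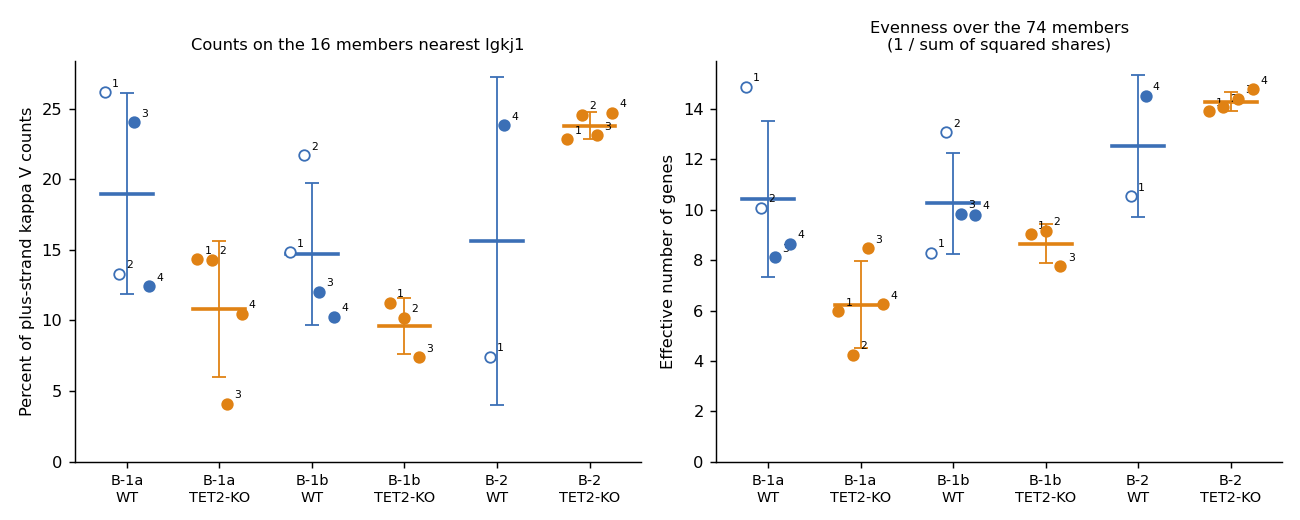
Percent of member counts on the 16 members of the proximal cluster (left) and effective number of member genes (right) in each of 21 libraries, drawn as in the plot of shares with points for libraries, bars for means and error bars for SD. The B-2 TET2-KO libraries lie at 22.8 to 24.7% and 13.9 to 14.8 effective genes, above the B-1 TET2-KO libraries in both.

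The comparison of subsets within TET2-KO mice asks whether the 3 B cell types used different plus-strand genes, and it needs none of the WT libraries. All members called between B-1a and B-2 cells were lower in B-1a cells. Of the 40 members that passed the filter on low counts, 16 were lower and 0 higher in B-1a than in B-2 libraries (edgeR quasi-likelihood test, Benjamini-Hochberg adjusted p under 0.05 over 18555 genes), compared with 5.82% of all genes tested called, or 2.57% called lower. A gene can pass the filter through its high group alone, so the 40 are not all members. The median log2 fold change was -2.22 over the 40 and -0.05 over all genes tested, and 37 of the 40 were below 0, compared with 53.2% of all genes. The 66 minus-strand genes tested had a median of -2.26, with 30 lower and 0 higher, and 3 of the 4 genes left out were higher. The 3 subsets were fitted together and each comparison shares libraries with the other two, so their calls are not independent. DESeq2, without the filter on low counts, called 23 members, compared with 7.82% of 44479 genes. Here and below, the base of DESeq2 held up to 74 members, and the exact number is not given.

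Igkv3-4, in the proximal cluster, had the largest difference. It stood at 6.17, 6.61, 3.63 and 2.90 CPM in B-1a libraries 1 to 4 and at 143, 126, 166 and 91.3 CPM in B-2 libraries 1 to 4. No B-1a value came near a B-2 value, and the log2 fold change was -4.80 ± 0.37 (SE; edgeR adjusted p = 1.64e-06). Igkv3-12 was at 4.59, 3.83, 1.90 and 0.853 CPM in B-1a and at 56.8, 58.00, 72.1 and 37.5 CPM in B-2 libraries, with a log2 fold change of -4.36 ± 0.49 (edgeR adjusted p = 0.000105). Igkv3-1, the member nearest the J genes, was at 0.755, 0.432, 1.44 and 0.797 CPM in B-1a and at 13.4, 11.5, 24.5 and 11.3 CPM in B-2 libraries (-4.16 ± 0.46, edgeR adjusted p = 4.48e-05). The groups overlapped in none of these 3 genes, which was a condition for naming them. They have the same 28-base recombination signal, as has Igkv3-10, which was also called. Igkv3-7, Igkv3-5, Igkv3-3 and Igkv3-2 have that signal too and were not called. The groups of Igkv3-7 overlapped, with 68.9 CPM in B-1a library 2 and 22.7 CPM in B-2 library 4.

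Igkv6-17, also proximal and with an octamer changed at its first base, was at 15.2, 14.6, 6.39 and 6.94 CPM in B-1a and 146, 166, 191 and 85.8 CPM in B-2 libraries (log2 fold change -3.80 ± 0.33, edgeR adjusted p = 3.36e-06). In the distal cluster Igkv14-130 was at 0.252, 0.741, 0.230 and 0.284 CPM, from 4 to 12 counts per library, in B-1a and 7.59, 5.003, 9.23 and 5.07 CPM in B-2 libraries (-4.16 ± 0.60, edgeR adjusted p = 0.000514). Neither pair of groups overlapped, which again was a condition for naming the genes here. The other 11 called were Igkv1-135, Igkv1-133, Igkv1-132, Igkv17-127, Igkv17-121, Igkv16-104, Igkv15-103 and Igkv10-95 of the distal cluster, Igkv13-84 of the middle and Igkv6-25 and Igkv3-10 of the proximal one. The 2 highest members were not among them. Igkv1-117 was at 389, 442, 76.8 and 20.7 CPM in B-1a and 495, 489, 563 and 285 CPM in B-2 libraries, with overlapping groups (log2 fold change -1.01 ± 0.76, edgeR adjusted p = 0.455). The 12 proximal members tested had a median of -3.56 and the 26 distal ones of -1.89.

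Between B-1b and B-2 cells the median fold changes of proximal and distal members lay on different sides of 0. Of 40 tested, 4 were lower and 0 higher in B-1b TET2-KO libraries (edgeR adjusted p under 0.05), compared with 2.15% of all genes called, or 0.631% called lower. DESeq2, without the filter on low counts, called 6 members, compared with 6.46% of 44479 genes. Its base held up to 74 members in place of the 40, so the 6 are not read as a result about the members. All 4 members called by edgeR lay in the middle or proximal cluster. All 12 proximal members tested had a fold change below 0, with a median log2 of -1.58, whereas 15 of 26 distal members were above 0, with a median of 0.22. Over all 40 members 25 were below 0, a share near the 55.6% of all genes. The difference between the clusters was not tested. Among minus-strand genes between the proximal members, 7 of 9 were below 0, with a median of -0.44.

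Igkv13-84, the 1 gene of the middle cluster, was at 11.2, 16.5 and 3.34 CPM in B-1b libraries 1 to 3 and 71.8, 86.1, 90.7 and 50.7 CPM in B-2 libraries 1 to 4 (log2 fold change -2.89 ± 0.41, edgeR adjusted p = 0.00122). Igkv3-4 was at 24.4, 28.05 and 9.45 CPM in B-1b libraries (-2.71 ± 0.38, edgeR adjusted p = 0.000891). Igkv6-17 was at 53.2, 56.1 and 43.2 CPM (-1.57 ± 0.33, edgeR adjusted p = 0.0188). These values lay below every B-2 value of the same gene, which was a condition for naming the genes here. Igkv3-1 was at 4.37, 5.31 and 2.26 CPM (-1.96 ± 0.46, edgeR adjusted p = 0.0348). Leaving out any 1 of the B-1b libraries, or B-2 library 2, brought the 4 calls to 2, and the calls of Igkv3-1 and Igkv6-17 were the ones lost. The distal leader Igkv1-117 was at 686, 553 and 249.9 CPM in B-1b libraries (0.08 ± 0.81, edgeR adjusted p = 0.967).

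**Figure D4:**
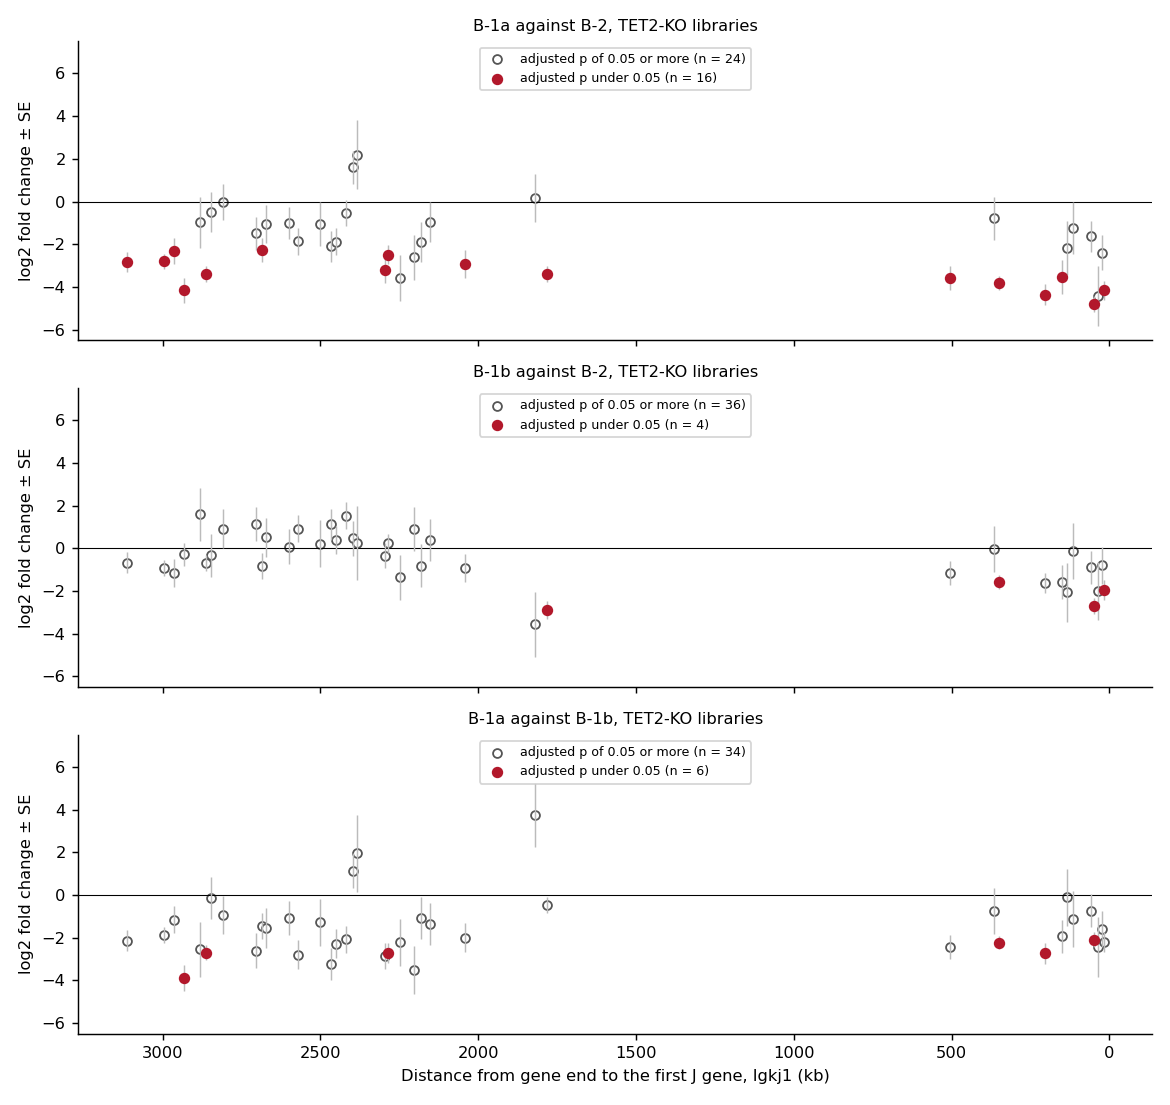
Log2 fold change ± SE from edgeR of the 40 members tested in each of 3 comparisons among TET2-KO libraries, against the distance in kb from the gene end to Igkj1. Red points passed an adjusted p of 0.05 (16, 4 and 6 members), and in the middle panel all 12 proximal members at right lie below 0 while 15 of 26 distal ones at left lie above it.

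B-1a and B-1b cells of TET2-KO mice, which the gate separates by CD5, also differed. Of 40 members, 6 were lower and 0 higher in B-1a libraries (edgeR adjusted p under 0.05), compared with 0.205% of all genes called, or 0.194% called lower. At an unadjusted p under 0.05, 20 were lower and 1 higher, compared with 3.43% of all genes lower. DESeq2, without the filter on low counts, called 13 members, compared with 0.317% of 44479 genes. Libraries of the 2 subsets that carry the same number deviated together weakly, with correlations from 0.116 to 0.273. With the number as a block 13 members were lower and 0 higher, compared with 0.383% of all genes. The median log2 fold change was -1.96 over the 40 members and 0.04 over all genes tested, and 37 of 40 were below 0, compared with 46% of all genes. The proximal and distal members had medians of -2.01 and -2.03. The 66 minus-strand genes tested had a median of -1.47, with 10 lower and 0 higher.

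Igkv17-127 was at 20.8, 25.4, 18.5 and 6.88 CPM in B-1a and 148, 125 and 80.02 CPM in B-1b libraries. The groups were far apart (log2 fold change -2.70 ± 0.36, edgeR adjusted p = 0.00638). Its pair Igkv17-121, with the same signal and the promoter printed beside it, was at 15.4, 14.3, 18.9 and 89.4 CPM in B-1a and 66.1, 136 and 81.04 CPM in B-1b libraries, with B-1a library 4 inside the B-1b range (-1.45 ± 0.60, edgeR adjusted p = 0.853). Igkv6-17 (-2.23 ± 0.32, edgeR adjusted p = 0.00834), Igkv14-130 (-3.87 ± 0.62, 0.0182), Igkv15-103 (-2.71 ± 0.46, 0.0317) and Igkv3-12 (-2.74 ± 0.48, 0.0413) were lower in B-1a libraries with no overlap. For these genes and Igkv17-127, no overlap was a condition for naming them here. Igkv15-103 was at 16.4, 11.7, 10.2 and 3.36 CPM in B-1a and at 63.4, 85.1 and 56.6 CPM in B-1b libraries. The last of the 6 was Igkv3-4 (-2.09 ± 0.36, edgeR adjusted p = 0.0236), whose groups did not overlap either. The count was 12 without B-1a library 1 and 3 without B-1b library 1, B-1b library 2 or B-2 library 2.

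Some members were high in a single B-1b library. Igkv2-109, whose heptamer carries G5C, was at 91.7, 516 and 49.97 CPM in B-1b TET2-KO libraries 1 to 3, Igkv14-100 at 329, 40.8 and 51.8 and Igkv14-111 at 126, 68.5 and 619 CPM. Each of the 3 genes was high in a different library. Igkv14-111 reached 13.3% of all kappa V counts in library 3, the highest share of a member in any library. Igkv1-117 held 10.2% of the kappa V counts of B-1b WT library 3. In B-2 TET2-KO libraries, by contrast, Igkv2-109 ran from 52.1 to 90.3, Igkv14-100 from 47.8 to 95.2 and Igkv14-111 from 78.1 to 173 CPM.

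**Figure D5:**
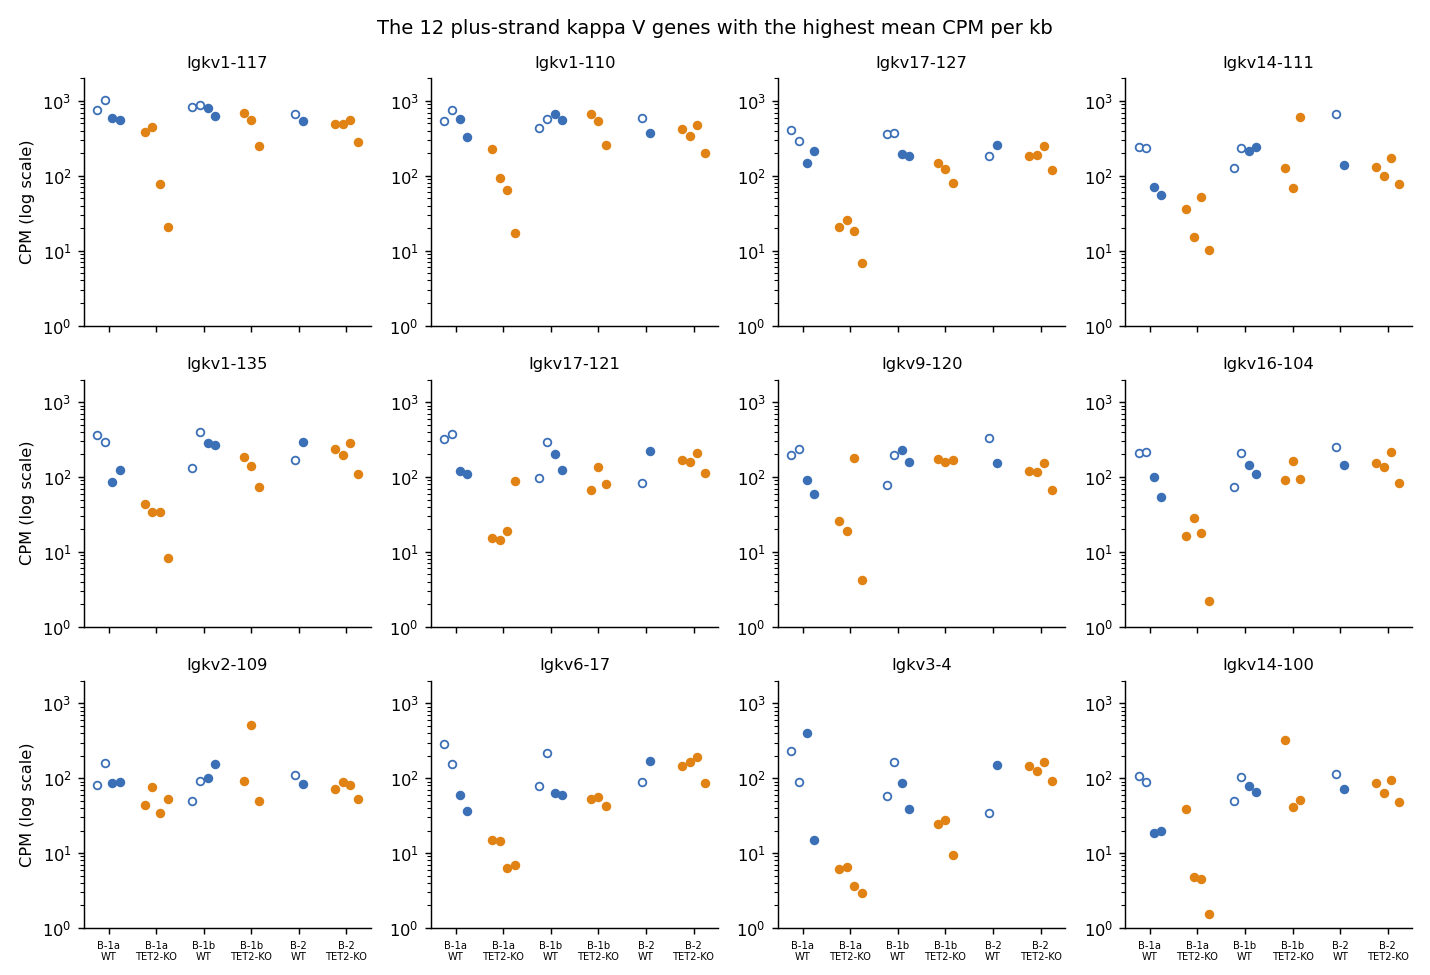
CPM (log axis) of the 12 members with the highest mean CPM per kb, with 1 point for each of 21 libraries by subset and genotype, open for the libraries labelled WT 1 and WT 2. The B-1a TET2-KO libraries lie at 6.88 to 25.4 CPM for Igkv17-127, below all other libraries, while single libraries stand high for Igkv14-111, Igkv2-109 and Igkv14-100.

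The comparison of TET2-KO with WT asks whether loss of TET2 went with less or more RNA of these genes within a subset. In B-1a cells most tested members had a fold change below 0, and 1 was called. Of 38 members tested, 1, Igkv17-127, was lower and 0 were higher (edgeR adjusted p under 0.05), compared with 0.0503% of the 13923 genes tested called, or 0.0431% called lower. At an unadjusted p under 0.05, 22 of the 38 were lower and 0 higher, compared with 4.19% of all genes lower. The median log2 fold change was -1.99 over the members and 0.02 over all genes tested, and 33 of 38 were below 0, compared with 47.6% of all genes. With the WT 1 and WT 2 libraries left out, 0 of 38 were called in edgeR, 16 were lower at an unadjusted p under 0.05 (compared with 2.22% of all genes), 33 were below 0 and the median was -1.52. DESeq2 on all libraries, without the filter on low counts, called 15 members, compared with 0.486% of 38261 genes. The 62 minus-strand genes tested had a median of -2.72, with 4 lower and 0 higher.

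Igkv17-127 was at 20.8, 25.4, 18.5 and 6.88 CPM in TET2-KO and 409.6, 291, 150.0 and 213 CPM in WT B-1a libraries 1 to 4. Every TET2-KO value lay below every WT value, which was a condition for naming the gene here. The means were 17.9 ± 7.90 CPM (SD, n = 4) and 266 ± 112 CPM (SD, n = 4), with a log2 fold change of -3.86 ± 0.43 (SE; edgeR adjusted p = 0.0298). With the WT 1 and WT 2 libraries left out the fold change was -3.33 (edgeR adjusted p = 0.0875). Leaving out WT 2, WT 4 or TET2-KO 1, 2 or 3 singly also ended the call, with edgeR adjusted p from 0.0619 to 0.119. In place of it Igkv3-4 was called without WT 4 (-5.61, edgeR adjusted p = 0.029) and Igkv1-122 without TET2-KO 1 (-3.17, edgeR adjusted p = 0.00735). Igkv3-4 had the largest fold change, -5.22 ± 0.89 (edgeR adjusted p = 0.092), with 6.17, 6.61, 3.63 and 2.90 CPM in TET2-KO and 229, 88.1, 400.5 and 14.9 CPM in WT libraries. With all libraries, all 10 proximal members tested were below 0, with a median of -3.27, and 22 of 26 distal ones, with a median of -1.80. The library labelled B-1a WT 1, with Fcer2a at the level of B-2 libraries, had a high proximal share. Its part in this split was not tested.

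The leading gene Igkv1-117 was at 389, 442, 76.8 and 20.7 CPM in TET2-KO and 762, 1043, 599.7 and 562 CPM in WT B-1a libraries, also without overlap (-1.65 ± 0.75, edgeR adjusted p = 0.628). Igkv1-110 was at 227, 92.9, 65.03 and 16.96 and 538, 759, 581 and 330.4 CPM (-2.43 ± 0.63, edgeR adjusted p = 0.31). The TET2-KO libraries spread widely in both genes. Igkv2-109 spread less, at 43.9, 76.02, 34.7 and 52.9 CPM, and stood at 81.1, 158, 85.4 and 88.7 CPM in WT libraries (-0.95 ± 0.28, edgeR adjusted p = 0.429). Summed over the 74 members, the level was 274 to 1143 CPM in TET2-KO and 2178 to 5047 CPM in WT B-1a libraries.

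In B-1b cells edgeR called no member. DESeq2, without the filter on low counts, called 3 members, compared with 0.165% of 36270 genes. Of 38 tested in edgeR, 0 passed an adjusted p of 0.05, compared with 0% of 14368 genes. At an unadjusted p under 0.05, 9 of the 38 were lower and 0 higher, compared with 2.18% of all genes lower. The median log2 fold change was -0.56 over the members and -0.01 over all genes, and over the members it was -0.25 with 39 members tested with the WT 1 and WT 2 libraries left out. Of the 38, 25 were below 0, compared with 50.5% of all genes. Without those libraries 8 were lower and 2 higher at an unadjusted p under 0.05, compared with 1.35% of all genes lower. With all libraries, all 12 proximal members tested were below 0, with a median of -1.03, and 12 of 25 distal ones, with a median of 0.03. The library labelled B-1b WT 2, with Fcer2a at the level of B-2 libraries, had a high proximal share. Its part in this split was not tested. The smallest unadjusted p belonged to Igkv3-4, at 24.4, 28.05 and 9.45 CPM in TET2-KO and 57.3, 165, 87.5 and 39.3 CPM in WT libraries (-2.06 ± 0.52, edgeR adjusted p = 0.838). Igkv17-127 was at 148, 125 and 80.02 and 361, 371, 195 and 183 CPM (-1.21 ± 0.31, edgeR adjusted p = 0.838). Igkv10-95 was at 4.66, 12.5 and 2.49 and 147, 34.2, 22.2 and 22.2 CPM (-3.06 ± 0.83, edgeR adjusted p = 0.838), where the library labelled WT 1 was far above the rest. In these 3 genes, picked by their p, the groups did not overlap, and 6 of the 38 members tested lay wholly lower. The share of all genes whose groups separate was not computed, so this is no result about the members.

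In B-2 cells there were 2 WT libraries, of which that labelled WT 1 had Fcer2a far below the other B-2 libraries. DESeq2, without the filter on low counts, called 2 members, compared with 0.391% of 43239 genes. In edgeR 0 of 42 members were called, compared with 0% of 19786 genes. At an unadjusted p under 0.05, 4 of the 42 were lower and 0 higher, compared with 2.86% of all genes lower. The median log2 fold change was 0.10 over the members and 0.18 over all genes tested. The 3 smallest p belonged to Igkv12-98, Igkv14-111 and Igkv1-133, and each was high in the library labelled WT 1. Igkv12-98 was at 32.4, 34.7, 40.5 and 19.3 CPM in TET2-KO libraries and at 288 and 39.2 CPM in WT 1 and 4 (-2.33 ± 0.61, edgeR adjusted p = 0.531). Igkv14-111 was at 669 and 141 CPM in WT 1 and 4 (-1.72 ± 0.53, edgeR adjusted p = 0.531). Igkv1-133 was at 97.3 and 14.4 CPM (-1.68 ± 0.58, edgeR adjusted p = 0.531). Without the library labelled WT 1, the fold changes were -0.29, -0.21 and 0.26, from a fit in which the lone WT library is assumed to vary like the TET2-KO ones. In the same comparison without it, 0 of 46 members were past an unadjusted p of 0.05, compared with 0.249% of all genes lower. Without WT 4, which leaves the library labelled WT 1 alone in its group, 4 members passed an adjusted p of 0.05 in edgeR, compared with 2.33% of all genes.

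Whether the TET2-KO effect differed between B-1a and B-1b cells was tested as an interaction. DESeq2, without the filter on low counts, called 1 member, compared with 0.00241% of 41543 genes. Of 43 members tested in edgeR, 0 passed an adjusted p of 0.05, compared with 0% of 15972 genes. At an unadjusted p under 0.05, 16 had a lower effect in B-1a cells and 0 a higher one, compared with 1.18% of all genes lower, and 6 had one with the WT 1 and WT 2 libraries left out, compared with 0.602%. The 3 with the smallest p were Igkv17-127 (log2 difference -2.65 ± 0.54, edgeR unadjusted p = 0.000168, adjusted p = 1), Igkv15-103 (-3.00 ± 0.74, unadjusted p = 0.00114) and Igkv14-130 (-3.94 ± 1.01, unadjusted p = 0.00125). The median over the 43 was -1.83, and -1.18 without those libraries, beside 0.03 over all genes, and 37 of 43 were below 0, compared with 46.8% of all genes.

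A list of 28 genes for kappa transcription and recombination gave few calls. Between TET2-KO and WT, 0 of 25 tested were called in B-1a, 0 of 25 in B-1b and 0 of 26 in B-2 cells (edgeR adjusted p under 0.05). At an unadjusted p under 0.05 there were 1, 4 and 2, compared with 7.85%, 5.48% and 8.86% of all genes. Pou2af1, the coactivator that Oct proteins recruit to immunoglobulin promoters, had a log2 fold change of -0.77 ± 0.34 in B-1a cells (edgeR adjusted p = 0.628). Between B-1a and B-2 TET2-KO libraries 2 of 25 were lower and 1 higher, compared with 5.82% of all genes called. Irf8, a transcription factor of B cell development, was lower (-1.43 ± 0.22, edgeR adjusted p = 0.000752), as was Mef2c (-0.90 ± 0.20, 0.0145), and Ikzf3, which encodes Aiolos, was higher (0.86 ± 0.19, 0.0113). Between B-1b and B-2 libraries 1 of 25, Ikzf3, was higher (1.00 ± 0.20, edgeR adjusted p = 0.014) and 0 lower, compared with 2.15% of all genes called, and between B-1a and B-1b libraries 0 of 25 were called, compared with 0.205%. Rag1 and Rag2, which encode the recombinase, were highest at 2.50 and 0.418 CPM, both in B-2 TET2-KO libraries, and at 0 in 14 and 17 of 21 libraries.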

How the data were processed

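Fragments were counted per gene in 21 RNA-seq libraries of sorted mouse peritoneal B cells. The deposited values are raw counts. The authors used fastp for trimming, STAR for alignment against GRCm39, and featureCounts 1.6.1 with the GENCODE vM32 annotation for unstranded counting of fragments, and by default that tool drops fragments that fit several places or genes. The labels and the methods describe the library preparation differently. Reads that span a V-J junction, or that carry somatic changes, can be lost in such an alignment. Symbols came from GENCODE vM39 and matched 56310 of 56953 gene IDs, and recombination signals and promoters were read from the GRCm39 genome. Total counts were 9667187 to 24152518 per library, with a median of 17425219.

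Groups were those of the labels. The plus-strand genes, the gene lists and the alternatives were chosen with earlier results of these data known. CPM used trimmed mean of M-values (TMM) factors over all libraries. Each comparison was fitted on all genes with edgeR 4.0.16 (filterByExpr, TMM, robust quasi-likelihood test, Benjamini-Hochberg) in R 4.3.3, with DESeq2 1.42.0, other scalings, other filters, a replicate block and libraries left out as alternatives. DESeq2 was run on every gene with a count, so its calls have another base than those of edgeR, with up to 74 members. An adjusted p that DESeq2 left undefined was kept so and not counted as a call. Such genes stayed in the base of its share of all genes. The edgeR steps were tested on simulated data with the same dispersion for all genes. The spread of kappa V genes between libraries was not simulated, so error rates for these genes were not tested. Summaries used Python 3.11.15. No pair of the 21 count files was identical. Named genes were the 12 highest by mean CPM per kb, up to 5 called members in each direction per comparison with the largest fold change and no overlap (with no call, the 3 smallest p), members with at least 10% of the kappa V counts of a library, and the first and last by position. Deviations from the group means correlated between same-numbered TET2-KO libraries of B-1a and B-1b cells at 0.273, 0.116 and 0.196. Same-numbered libraries were paired only in the alternative fits with a replicate block, on a weak hint from the data and not from the labels. The main fits had no block, so their p-values take no account of pairing. The block also paired the B-2 libraries, whose same-numbered correlations with B-1 libraries ran from -0.098 to 0.417. With unequal numbers, B-1b library 1 and B-2 library 3 reached 0.256.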

Additional observations from a re-analysis of the deposited data

Results flagged for a closer look

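In groups of 4 libraries, a value was singled out where the gap to its nearest neighbour took up most of the range of the group. Chance does this in about 1 in 20 groups, and 87 groups were examined. In B-1a TET2-KO cells Igkv17-121 stood apart in library 4 at 89.4 CPM, Igkv9-120 in library 3 at 177 CPM, Igkv12-98 in library 3 at 55.5 CPM, Igkv14-100 in library 1 at 38.2 CPM and Igkv14-130 in library 2 at 0.741 CPM. Igkv3-1 stood apart in B-2 TET2-KO library 3 at 24.5 CPM.

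Other single values lay in the WT libraries whose markers went against their labels. The library labelled B-1a WT 1 stood apart for Igkv13-84 at 139 CPM, Igkv3-1 at 31.6 CPM and Igkv10-95 at 27.3 CPM, and that labelled B-1a WT 2 for Igkv2-109 at 158 CPM. The library labelled B-1b WT 2 stood apart for Igkv6-17 at 218 CPM and Igkv13-84 at 119.8 CPM. That labelled B-1b WT 1 stood apart for Igkv10-95 at 147 CPM and for the share of kappa V counts on plus-strand genes, 20.1%.

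The TET2-KO minus WT difference in that share was lower in B-1a than in B-1b cells by -29.0 points and lower than in B-2 cells by -29.4 points. Every TET2-KO library lay below its WT mean in B-1a cells and above it in B-1b and B-2 cells. These differences between subsets were not tested. Without the library labelled WT 1, the difference turned to -2.20 points in B-1b and to -0.316 points in B-2 cells. The B-1a difference was smaller without the WT 1 and WT 2 libraries, as given above.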

How the results depend on the processing

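The alternatives were run for the 24 fold changes named for a call or for the smallest p, and not for the other fold changes printed. These 24 kept their direction under every alternative run, with 1 exception. Igkv1-133 in B-2 cells was -1.68, turned to 0.26 without the library labelled WT 1 and was -2.46 without WT 4. The counts of called plus-strand genes depended more on the processing. For TET2-KO against WT in B-1a cells the count of 1 became 15 with DESeq2, 8 with no filter, 8 with the replicate number as a block and 0 with the WT 1 and WT 2 libraries left out. In B-1b cells 0 became 3 with DESeq2 and 5 with no filter, and in B-2 cells 2 with each. For B-1a against B-1b the count of 6 became 13 with DESeq2 and 13 with the block. The interaction count of 0 became 1 with DESeq2 and 21 with no filter. The share of all genes called is not given here for the fits with no filter. It is also not given for the block in TET2-KO against WT, nor for most fits with 1 library left out. These counts show how the calls move with the processing, and not whether the members differ from other genes.

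Leaving out 1 library at a time gave counts of 0 to 1 for TET2-KO against WT in B-1a cells (0 without WT 2, TET2-KO 2 or TET2-KO 3), 0 to 4 in B-2 cells, 13 to 20 for B-1a against B-2, 2 to 5 for B-1b against B-2 and 3 to 12 for B-1a against B-1b. The medians then ran from -3.06 to -1.69 for TET2-KO against WT in B-1a cells, -0.69 to -0.26 in B-1b and -0.15 to 0.15 in B-2 cells, from -2.94 to -1.94 for B-1a against B-2, -0.77 to -0.46 for B-1b against B-2 and -2.27 to -1.56 for B-1a against B-1b. With the block the median was -2.80 for TET2-KO against WT in B-1a cells and -0.91 for B-1b against B-2, and Igkv3-1 in B-1b against B-2 had an edgeR adjusted p of 0.0506. With no filter the median was -1.39 for B-1a against B-1b. WT and TET2-KO libraries share only a number.

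The difference in share was -8.26 points in B-1a and -3.36 in B-2 cells without the 4 left-out genes in the denominator. On that base the library labelled B-2 WT 1 stood at 57.8%. B-2 WT 4 stood at 48.7%, inside the 48.6 to 50.8% of the B-2 TET2-KO libraries, so the -3.36 rests on WT 1. With all kappa V genes in the denominator, the difference was -15.7 in B-1a cells with the WT 1 and WT 2 libraries left out. Leaving out 1 library gave -27.8 to -21.6 points in B-1a, -2.20 to 7.15 in B-1b and -0.316 to 9.99 in B-2 cells. The cause of these changes was not tested. Depth limits the lowest genes, such as Igkv14-130 with 4 to 12 counts per B-1a TET2-KO library.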

Other observations

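The Igkv1 family held 41.7% of the plus-strand counts on average, from 20.3% to 60.2% over the 21 libraries. Among the pseudogenes, Igkv11-106, Igkv2-116 and Igkv2-107 were the 3 with a mean of at least 1 CPM over all libraries.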
